A study of Homo sapiens with 6 samples.

Results

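The stathmin family comprises STMN1, STMN2, STMN3 and STMN4, and all 4 genes had a row in a count table of 56832 gene symbols. They were found by symbol. STMN2 was picked because its mRNA was higher in SMARCA3 KO cells, and STMN1, STMN3 and STMN4 were taken as its relatives whatever their values, so the difference of STMN2 is described here without a test. The cells were HEK293T, a human kidney line of embryonic origin transformed with DNA of an adenovirus and carrying large T antigen of SV40, and their polyadenylated RNA was sequenced. The libraries came from 3 samples of SMARCA3 KO HEK293T cells, in which the labels give SMARCA3 as knocked out, the SNF2-family helicase and ubiquitin ligase encoded by HLTF, and from 3 samples of wild-type (WT) HEK293T cells. Both groups share the medium and the library kit, and the series asks how SMARCA3, through ubiquitination of histone H3, bears on H3K9me3. The labels do not say whether the KO cells were 1 clone or whether replicates were separate cultures, so each p-value reflects just the variation among these libraries, and that variation may be technical.

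Stathmins bind free alpha- and beta-tubulin dimers, and so keep them out of microtubules and favour the shrinkage of microtubule ends. Phosphorylation by mitotic, MAP and other kinases weakens this binding. STMN1 (stathmin, or oncoprotein 18) is the cytosolic member of dividing cells. STMN2 (SCG10), STMN3 (SCLIP) and STMN4 (RB3) are known chiefly from neurons and carry an added N-terminal part that is palmitoylated and holds them on Golgi and vesicle membranes. STMN2 is found in growing and regenerating axons, and the repressor REST keeps it silent in most cells outside the nervous system. Its pre-mRNA is a target of the RNA-binding protein TDP-43, the product of TARDBP.

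Total counts per library ran from 33125811 to 36804337 in SMARCA3 KO cells and from 38199454 to 41593655 in WT cells, and levels are given below as CPM, the count relative to the TMM-scaled library total. The mRNA of the targeted gene HLTF was present in all 6 libraries, at 143 ± 5.26 CPM in SMARCA3 KO cells and 200.3 ± 13.1 CPM in WT cells (SD, n = 3 each), a log2 fold change of -0.48 with an SE of 0.05 (edgeR adjusted p = 4.65e-05). With the median of its chromosomal neighbours removed the value was 0.02 (adjusted p = 0.836). Whether the HLTF reading frame or its protein was disrupted cannot be read from gene counts. Of all 18061 tested genes 31.8% were called, 14% higher and 17.7% lower. All 7 markers associated with HEK293 cells were tested, with 1 higher, 4 lower and 2 not called in SMARCA3 KO cells. Their summed level was 199 to 206 CPM in SMARCA3 KO libraries and 283 to 293 CPM in WT libraries. VIM made up most of this difference, with means of 117 CPM in SMARCA3 KO cells and 183 CPM in WT cells. The log2 fold change of VIM, -0.639, stood beside a median of -0.642 for its chromosomal neighbours. The other markers called lower were EYA1 (-1.87), KRT8 (-0.912) and KRT18 (-1.15), beside neighbour medians of -0.0839, 0.00643 and 0.00643. These 4 markers were named after their values were seen. Of 8 fibroblast markers, 3 had enough counts to test and 0 of these were called (edgeR adjusted p of 0.207 to 0.616, with 0 at an unadjusted p under 0.05), with DCN at 0 in all libraries. The part of these marker differences in the results below was not tested.

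In hg38 with GENCODE 29, STMN1 occupies bases 25884181 to 25906991 of chromosome 1 and STMN3 bases 63639705 to 63657682 of chromosome 20, both on the minus strand. No annotated gene overlaps exons of STMN2, STMN3 or STMN4, and the exons of STMN1 overlap only the 66 bases of the microRNA gene MIR3917 on the same strand. Of all 50-base words in the annotated transcripts of STMN2, 0% occur in transcripts of another gene, and the same holds for STMN4, while 0.738% of the words of STMN3 occur in Z99916.2 and at most 0.336% of those of STMN1 occur in any other gene.

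Sequences upstream of an annotated start site are shown for STMN1 and STMN3, the members with the highest levels in both groups. They were taken from RefSeq (GRCh38.p14), run 5′ to 3′ along the gene, and stop before the first base that any annotated exon of the gene covers. Capitals mark each match to GGGCGG, the GC box, or to CACGTG, an E-box, searched on both strands.
STMN1, chr1:25906467-25906669, minus strand: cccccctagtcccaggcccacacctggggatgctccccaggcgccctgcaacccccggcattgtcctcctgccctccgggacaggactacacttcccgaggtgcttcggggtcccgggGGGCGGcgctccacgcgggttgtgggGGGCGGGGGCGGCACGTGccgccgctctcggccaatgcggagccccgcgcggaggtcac
STMN3, chr20:63652767-63653016, minus strand: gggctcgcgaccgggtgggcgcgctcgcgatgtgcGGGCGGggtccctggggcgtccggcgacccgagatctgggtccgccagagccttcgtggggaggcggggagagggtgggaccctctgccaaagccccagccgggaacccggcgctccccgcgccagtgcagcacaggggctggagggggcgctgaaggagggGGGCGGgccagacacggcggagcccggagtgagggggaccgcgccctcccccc
The RefSeq promoters used here include 3 start sites of STMN1, and the window shown is that of the site within 50 bases of which 3 GENCODE transcripts start, against 0 at the other sites. Within 50 bases of the STMN3 site 2 of its 5 GENCODE transcripts start. Both windows shown lie inside the annotated bounds of their genes, whose upstream ends are at 25906991 for STMN1 and 63657682 for STMN3. The STMN1 window shown held 3 GC boxes and 1 E-box, with 2 GC boxes and the E-box next to each other without overlap. Of 35116 RefSeq promoter windows of the same 203 bases, 35.6% held a GC box and 4.62% an E-box. The STMN3 window held 2 GC boxes and no E-box, and of promoter windows of 250 bases 42.6% held a GC box and 6.34% an E-box. Both windows shown were rich in G and C, at 75.4% for STMN1 and 78% for STMN3, beside medians of 57.1% and 58% over promoter windows of these lengths. The windows of the other STMN1 start sites differed, with 0 GC boxes, 0 E-boxes and 57.55% G and C in that of 25906992 to 25907130, and 4 GC boxes, 0 E-boxes and 78.2% G and C in that of 25906154 to 25906295. Such matches describe the letters only, and the counts carry no measure of binding.

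STMN2 mRNA was clearly present in SMARCA3 KO cells and low in WT cells. The gene occupies bases 79610814 to 79666175 of chromosome 8 on the plus strand (hg38). It had 554, 667 and 609 counts in SMARCA3 KO replicates 1 to 3, against 29, 28 and 38 counts in WT replicates 1 to 3. Scaled for depth these were 16.1, 18.1 and 18.5 CPM in SMARCA3 KO libraries and 0.699, 0.718 and 0.997 CPM in WT libraries. Every SMARCA3 KO library was far above every WT library, and the libraries within a group lay close together. The means were 17.6 ± 1.25 CPM in SMARCA3 KO cells and 0.805 ± 0.166 CPM in WT cells (SD, n = 3 each), a ratio of 21.8 and a log2 fold change of 4.45 (SE 0.13). By this log2 fold change STMN2 ranked 19 among the 18061 genes tested, a position that follows from how it was picked. Its level in SMARCA3 KO cells exceeded that of 54.6% of tested genes, and its level in WT cells that of 18.6%. In bulk RNA a larger number of cells that hold STMN2 mRNA and more STMN2 mRNA per cell cannot be told apart.

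STMN1 mRNA was abundant and close to equal in the groups. It measured 333, 346 and 358 CPM in SMARCA3 KO replicates 1 to 3 and 368, 346 and 351 CPM in WT replicates 1 to 3. The ranges overlapped. The means of 346 ± 12.4 CPM in SMARCA3 KO cells and 355 ± 11.5 CPM in WT cells (SD, n = 3 each) gave a log2 fold change of -0.04 with an SE of 0.04 (edgeR adjusted p = 0.513), with a 95% interval of -0.13 to 0.05. The exact two-sided permutation test gave p = 0.5, where 3 against 3 libraries cannot go below 0.1. STMN1 stood above 97.7% of tested genes in either group, and it varied less between replicates than most, with a biological coefficient of variation of 4.23%, lower than that of all but 9.58% of tested genes.

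STMN3 mRNA was expressed at an intermediate level and varied more between libraries. It measured 42.1, 33.03 and 36.9 CPM in SMARCA3 KO replicates 1 to 3 and 35.2, 44.0 and 49.3 CPM in WT replicates 1 to 3. WT replicate 1 lay inside the SMARCA3 KO range and the other WT libraries above it. The means were 37.4 ± 4.56 CPM in SMARCA3 KO cells and 42.8 ± 7.13 CPM in WT cells (SD, n = 3 each), a log2 fold change of -0.20 with an SE of 0.12 (edgeR adjusted p = 0.229, exact permutation p = 0.4), with a 95% interval of -0.46 to 0.06. Without WT replicate 1 the log2 fold change was -0.31 and the adjusted p was 0.00589, past the threshold. With all 6 libraries and no filter on low counts it was also past it, where the value was -0.21 and the adjusted p was 0.0197. That value was close to the main one, whereas adjusted p-values in the fit without a filter differed widely from the main ones. For HLTF the adjusted p was 4.38e-19 against 4.65e-05, and for the scaffold gene SIN3A it was 0.0471 against 0.0138. Over all 16 alternatives the adjusted p of STMN3 ran from 0.00589 to 0.624. The biological coefficient of variation of STMN3 was 10.2%, higher than in 83.6% of tested genes. WT replicate 1 also stood apart over genes at large. The chi-square per degree of freedom of its counts was 8.72 against WT replicate 2 and 13.6 against WT replicate 3. Between WT replicates 2 and 3 it was 3.90. The part of this in the values of STMN3 was not tested.

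STMN4 was at the edge of detection. The gene lies on the other arm of the chromosome that carries STMN2, from 27235323 to 27258420 on the minus strand (hg38). It had 0, 0 and 1 counts in SMARCA3 KO replicates 1 to 3 and 3, 1 and 1 counts in WT replicates 1 to 3, too few to pass the filter on low counts. The summed counts were 1 in SMARCA3 KO cells and 5 in WT cells, a ratio per scaled total of 0.228 with an exact 95% interval of 0.00481 to 2.04 that covers counting error only. A difference in STMN4 was not detectable at this depth. Of the 4 members, 3 passed the filter, and of the pair among these that was not picked by value, STMN1 and STMN3, 0 were called in edgeR and 0 had an unadjusted p under 0.05, beside 31.8% of all tested genes called. The CPM ranges of the groups did not overlap for STMN2 alone among the tested members, beside 45.6% of all tested genes.

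**Figure D1:**
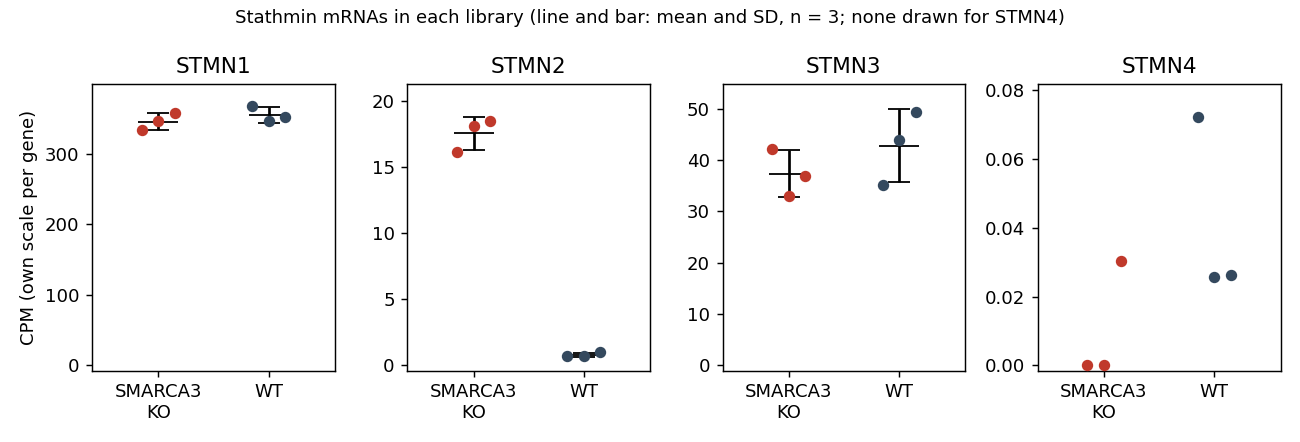
Level of each stathmin mRNA in CPM, each gene on its own axis, with SMARCA3 KO libraries in red on the left and WT libraries in dark grey on the right of each panel, where points are libraries and lines with bars are means and SDs of 3 libraries (none drawn for STMN4). STMN2 sits at 16.1 to 18.5 CPM in SMARCA3 KO libraries and below 1 CPM in WT libraries, while the groups overlap for STMN1, STMN3 and STMN4.

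**Figure D2:**
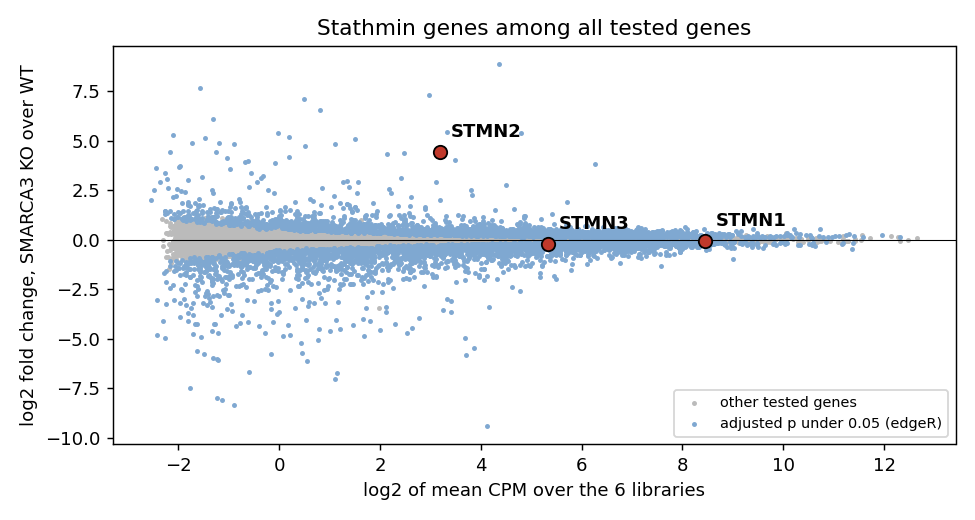
Log2 fold change of SMARCA3 KO over WT against the log2 of mean CPM over the 6 libraries for the 18061 tested genes, with genes at an edgeR adjusted p under 0.05 in blue, others in grey and stathmin genes as large red points. STMN2 stands at 4.45, while STMN1 at -0.04 and STMN3 at -0.20 lie within the band of most genes.

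Levels of different genes were compared per kilobase of annotated exon, as CPM per kb. In SMARCA3 KO cells the order was STMN1 at 55.2 ± 1.98, STMN3 at 12.3 ± 1.503, STMN2 at 7.44 ± 0.530 and STMN4 at 0.00307 ± 0.00531 CPM per kb (SD, n = 3). In WT cells the order was the same, with STMN1 at 56.7 ± 1.83, STMN3 at 14.1 ± 2.35, STMN2 at 0.341 ± 0.0705 and STMN4 at 0.0126 ± 0.00813 CPM per kb (SD, n = 3). Neighbours in either order did not overlap between libraries. The exonic length of STMN1, 6261 bases, is the union over its 9 annotated transcripts, and over its longest coding transcript of 1712 bases its level was 202 ± 7.25 CPM per kb in SMARCA3 KO cells and 207 ± 6.69 CPM per kb in WT cells (SD, n = 3 each), with the same order of the 4 genes. STMN2 made up 9.92 ± 0.600% of the family's summed level per kilobase in SMARCA3 KO cells and 0.477 ± 0.0888% in WT cells (SD, n = 3 each), or 3.50 ± 0.173% and 0.160 ± 0.0329% over the longest coding transcripts in the same group order. For each STMN3 count there were 0.383, 0.549 and 0.4996 STMN2 counts in SMARCA3 KO replicates 1 to 3 and 0.0198, 0.0163 and 0.0202 in WT replicates 1 to 3. The summed CPM of the 4 genes was 401 ± 11.4 in SMARCA3 KO cells and 399 ± 7.06 in WT cells (SD, n = 3 each). In this sum the mean of STMN2 was higher in SMARCA3 KO cells, at 17.6 against 0.805 CPM in WT cells. The means of STMN1 (346 against 355 CPM) and STMN3 (37.4 against 42.8 CPM) were lower, though neither gene was called. STMN1 outweighed the other members in every library.

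The genes around STMN2 on its chromosome were far below it in log2 fold change. The 40 expressed genes nearest to STMN2, 20 on each side with a mean of at least 2 CPM, included 5 called higher and 15 called lower, and their median log2 fold change was -0.11, beside 14% of all tested genes called higher and 17.7% lower. None of them lay above STMN2, which follows from how STMN2 was picked, and the highest was ZNF704 at 0.58. The nearest tested genes with a matched position were ZC2HC1A, 891 kb away, and HEY1, a Notch-responsive transcriptional repressor, 97.8 kb away. ZC2HC1A measured 8.20 ± 0.447 CPM in SMARCA3 KO cells and 8.26 ± 0.923 CPM in WT cells, and HEY1 233 ± 3.45 CPM in SMARCA3 KO cells and 239 ± 9.96 CPM in WT cells (SD, n = 3 each). Neither was called (edgeR adjusted p = 0.931 for ZC2HC1A and 0.589 for HEY1).

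The 40 neighbours of STMN1 included 4 called higher and 1 lower, around a median of 0.00, beside the same shares of all tested genes. The called fall was that of PAQR7, a progestin receptor of the cell membrane 12.9 kb from STMN1, at 2.10 ± 0.250 CPM in SMARCA3 KO cells and 3.37 ± 0.241 CPM in WT cells (SD, n = 3 each), a log2 fold change of -0.68 with an SE of 0.13 (adjusted p = 0.00246). PAFAH2, a phospholipase on the other side, had a log2 fold change of -0.06 (adjusted p = 0.534). STMN3 lies near the end of its chromosome, where 34 neighbours included 6 called higher and 2 lower, with a median of 0.10, and 32 of them stood above STMN3. GMEB2 and RTEL1, a helicase of telomere maintenance that starts 0.128 kb from STMN3, had log2 fold changes of 0.02 and 0.28 and were not called (adjusted p = 0.883 and 0.384). The 40 neighbours of STMN4 included 4 called higher and 8 lower, with a median of -0.06, and ran from -9.40 for the neurofilament gene NEFM to 0.65 for EBF2. The flanking genes DPYSL2, which encodes the tubulin-binding protein CRMP2, and TRIM35 had log2 fold changes of 0.02 and 0.05 (adjusted p = 0.864 and 0.554). With the neighbour median removed, the log2 fold change of STMN2 was 4.56, that of STMN1 -0.04 and that of STMN3 -0.30 (adjusted p = 0.507 for STMN1 and 0.0814 for STMN3).

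**Figure D3:**
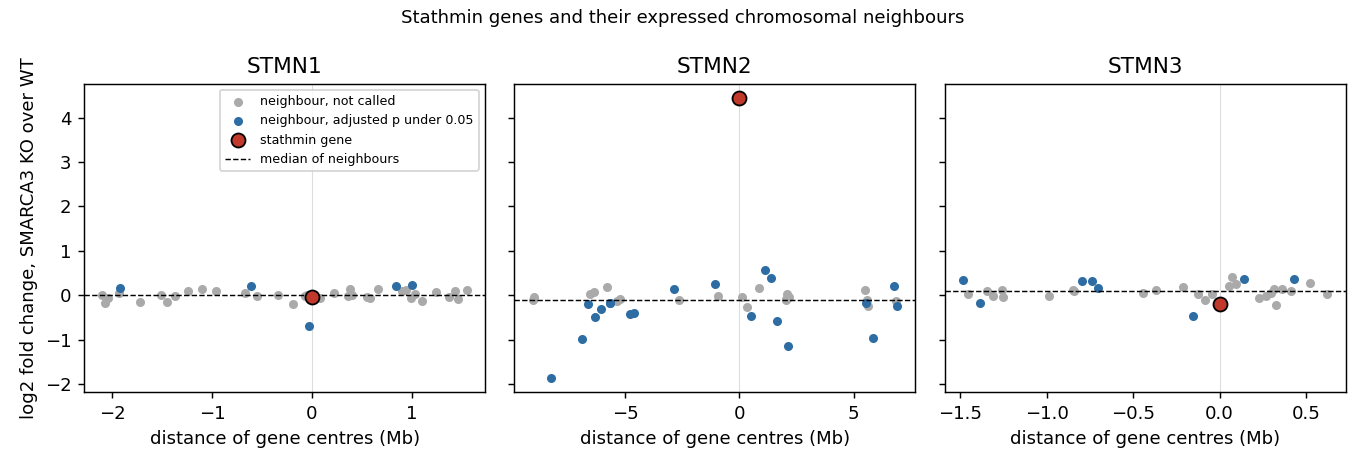
Log2 fold change of SMARCA3 KO over WT for the expressed neighbours of STMN1, STMN2 and STMN3 against the distance between gene centres in Mb, with called neighbours in blue, others in grey, the stathmin gene in red and a dashed line at the median of the neighbours. STMN2, which was picked for its rise, stands at 4.45 over a median of -0.11. STMN1 lies below 28 of its 40 neighbours and STMN3 below 32 of its 34.

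Across the 6 libraries, the genes with the profile most like that of each member were taken as the 5 with the smallest Euclidean distance between log2 CPM values centred on their mean, among 13594 tested genes with an approved symbol. For STMN2 these were FGF13, an intracellular FGF homologue that binds sodium channels, at a distance of 0.38, the CD30 receptor gene TNFRSF8 at 0.49, the ileal bile acid binding protein gene FABP6 at 0.51, the elongation scaffold gene AFF2 at 0.63 and the adhesion receptor gene ADGRD1 at 0.69. FABP6 measured 4.19 ± 0.333 CPM in SMARCA3 KO cells and 0.143 ± 0.0115 CPM in WT cells (SD, n = 3 each). All 5 lie on chromosomes other than that of STMN2, and since they were chosen by this profile their values are a description.

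For STMN3 the nearest profiles were TRIP6, a LIM domain adaptor of focal adhesions, at 0.05, LAGE3 at 0.05, FAM3A at 0.08, SAPCD2 at 0.09 and the chloride channel gene TTYH3 at 0.09. Each of these was lower in WT replicate 1 than in the other WT libraries, as STMN3 was, and each was called lower only when WT replicate 1 was left out or, for TRIP6, LAGE3, FAM3A and TTYH3, with no filter on low counts, and for TTYH3 also with the neighbour median removed and without SMARCA3 KO replicate 1. These genes were chosen by the profile of STMN3 over the same libraries, so their likeness to it and their calls are a description. TRIP6 measured 38.5 ± 4.40 CPM in SMARCA3 KO cells and 45.3 ± 7.79 CPM in WT cells (SD, n = 3 each). For STMN1 the nearest were the calpain gene CAPN7, the RNA helicase gene DDX18, SPIN1, PAK1IP1 and the repair polymerase gene POLB, at distances of 0.03 to 0.04.

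**Figure D4:**
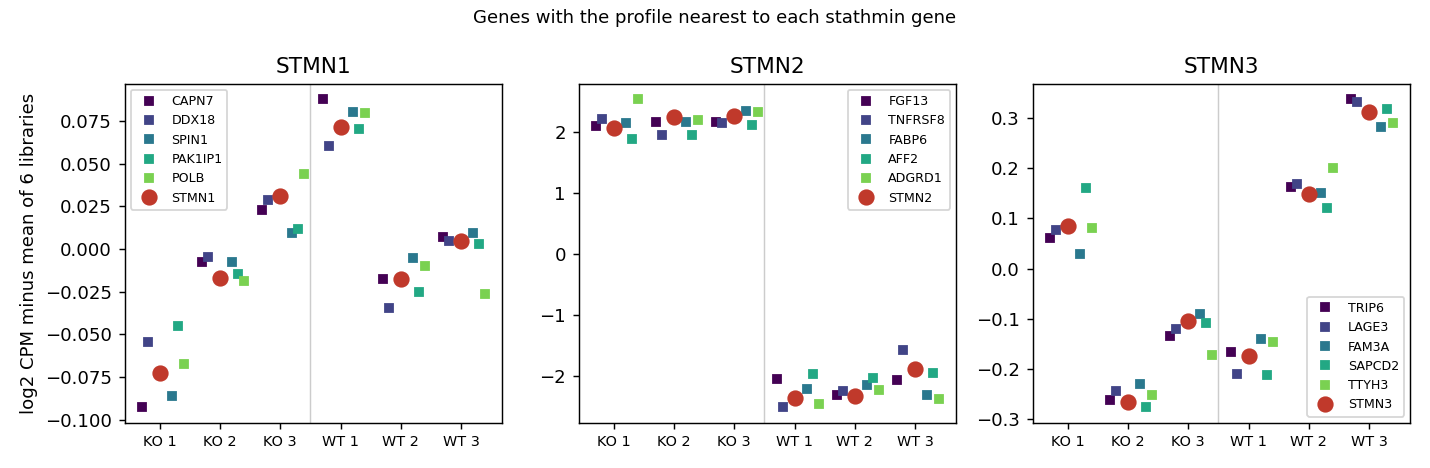
Log2 CPM minus the mean of the 6 libraries for STMN1, STMN2 and STMN3 (red circles) and the 5 genes nearest to each (squares), by library, with SMARCA3 KO libraries left of the grey line and WT libraries right of it. STMN2 splits by group, whereas STMN3 and its nearest genes sit low in WT replicate 1, SMARCA3 KO replicate 2 and SMARCA3 KO replicate 3.

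The partners of the stathmins were examined in 10 lists of 133 tested genes in all, of which 24 were higher, 26 lower and the rest not called in SMARCA3 KO cells, with a median log2 fold change of -0.01. Over all 18061 tested genes 14% were called higher and 17.7% lower, with a median of 0.00, so counts near these shares say nothing particular about a list. Without SMARCA3 KO replicate 2 the number of called partners fell to 33, against 50 with all libraries.

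Among the alpha- and beta-tubulins, the subunits that stathmins bind, 2 of 14 tested genes rose, 4 fell and 8 were not called, and the median was -0.07. TUBA1C, an alpha-tubulin of dividing cells, fell to 132 ± 1.71 CPM in SMARCA3 KO cells, against 158 ± 0.893 CPM in WT cells (SD, n = 3 each; log2 fold change -0.25, edgeR adjusted p = 0.000385), and TUBA1A, the main alpha-tubulin of developing neurons, fell by 0.33 on the log2 scale. TUBB2B, a beta-tubulin of developing neurons, rose to 51.2 ± 2.62 CPM in SMARCA3 KO cells, against 38.7 ± 1.11 CPM in WT cells (SD, n = 3 each). The platelet beta-tubulin TUBB1 was higher by 0.55 but was not called in 6 of 16 alternatives, among them leaving out SMARCA3 KO replicate 2 (adjusted p = 0.154), WT replicate 1 (0.0514), WT replicate 2 (0.0523) and WT replicate 3 (0.0617). The tubulins' summed level was 2340 to 2353 CPM in SMARCA3 KO libraries and 2336 to 2509 CPM in WT libraries. Tubulin genes are near-identical in places, so reads may have been split among them.

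Structural microtubule-associated proteins, which bind along the polymer, had 1 of 14 tested higher, 6 lower and 7 not called, with a median of -0.13. MAP1B, a microtubule protein of growing axons, measured 67.4, 70.9 and 70.3 CPM in SMARCA3 KO replicates 1 to 3 and 123, 115 and 111 CPM in WT replicates 1 to 3, a log2 fold change of -0.74 with an SE of 0.05 (adjusted p = 1.48e-06). MAP7, which recruits kinesin-1, measured 14.1, 14.4 and 14.7 CPM in SMARCA3 KO libraries and 28.3, 29.6 and 28.1 CPM in WT libraries, a log2 fold change of -0.99 with an SE of 0.06 (adjusted p = 7.64e-07). For both genes the groups did not overlap, as was so for 45.6% of all tested genes. Both were named for a small p in this same contrast. MAP4, the broadly expressed member, was higher by 0.21 beside a neighbour median of 0.14, and with that median removed it was not called (adjusted p = 0.180).

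Severing and depolymerising proteins act on microtubule ends or lattices as stathmins do on free dimers, and 4 of 12 tested genes rose, 0 fell and 8 were not called, and the median was 0.04. The katanin gene KATNA1 measured 65.7 ± 0.893 CPM in SMARCA3 KO cells and 51.4 ± 2.10 CPM in WT cells, and the kinesin-8 gene KIF18B 119 ± 7.87 CPM in SMARCA3 KO cells and 89.6 ± 12.5 CPM in WT cells (SD, n = 3 each). Their log2 fold changes of 0.35 and 0.41 stood beside neighbour medians of 0.26 and 0.32, and with those removed neither was called (adjusted p = 0.162 and 0.493) and 1 member of the list was. The list had 2 calls without SMARCA3 KO replicate 2 and 2 without SMARCA3 KO replicate 3.

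Of 15 plus-end and growth factors, 3 were higher, 2 lower and 10 not called, with a median of -0.04. SLAIN1, which promotes microtubule growth with CKAP5, measured 45.8, 47.6 and 50.8 CPM in SMARCA3 KO replicates 1 to 3 and 102, 92.0 and 95.5 CPM in WT replicates 1 to 3, a log2 fold change of -1.004 with an SE of 0.06 (adjusted p = 3.82e-07). The end-binding protein gene MAPRE2 fell by 0.27 on the log2 scale. CLASP1 and CLASP2, which promote rescue of shrinking ends, had log2 fold changes of 0.22 and 0.26, the second beside a neighbour median of 0.18 (adjusted p = 0.291 with it removed). Of 7 tubulin folding cofactors, 2 were higher, 1 lower and 4 not called, with a median of 0.15, and the list had 1 call without SMARCA3 KO replicate 1 and 1 without SMARCA3 KO replicate 2. TBCD rose to 115 ± 5.22 CPM in SMARCA3 KO cells, against 81.6 ± 5.72 CPM in WT cells (SD, n = 3 each). Its log2 fold change of 0.49 stood beside a neighbour median of 0.26, and with that removed it was 0.23 (adjusted p = 0.0131). TBCE was higher by 0.27 and TBCA lower by a log2 fold change of -0.16. The call of TBCE was lost without SMARCA3 KO replicate 1 (adjusted p = 0.0725), SMARCA3 KO replicate 2 (0.0949) or WT replicate 3 (0.0667), and that of TBCA without SMARCA3 KO replicate 1 (0.105), SMARCA3 KO replicate 2 (0.0638) or WT replicate 3 (0.0521) and with the neighbour median removed (0.401).

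Of 18 tested kinases reported to phosphorylate stathmins, 1 was higher, 6 lower and 11 not called, with a median of -0.07, and 4 were called without SMARCA3 KO replicate 1 and 3 without SMARCA3 KO replicate 3. AURKB, the mitotic kinase of the chromosomal passenger complex, fell to 94.9 ± 2.12 CPM in SMARCA3 KO cells, against 118 ± 9.47 CPM in WT cells (SD, n = 3 each), and CAMK2B, a calcium and calmodulin kinase, fell by 0.61 on the log2 scale. UHMK1, also called KIS for kinase interacting with stathmin, was higher by 0.17 (adjusted p = 0.0138), a call lost without SMARCA3 KO replicate 2 (0.0589), SMARCA3 KO replicate 3 (0.0521) or WT replicate 2 (0.0564). Of 21 ZDHHC palmitoyltransferases, the enzyme family that attaches palmitate to proteins such as STMN2, 3 were higher, 5 lower and 13 not called, with a median of -0.04. ZDHHC2 fell to 19.9 ± 0.623 CPM in SMARCA3 KO cells, against 32.6 ± 2.79 CPM in WT cells (SD, n = 3 each), and ZDHHC21 fell by 0.41 on the log2 scale. ZDHHC3, a Golgi enzyme, and ZDHHC14 were higher by 0.24 and 0.38, where their neighbours had medians of 0.16 and 0.25, and neither was called with those removed (adjusted p = 0.170 and 0.246). This list had 5 calls without SMARCA3 KO replicate 1, 5 without SMARCA3 KO replicate 2 and 4 without WT replicate 2.

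REST and its corepressors, which silence neuronal genes in other cells, had 3 of 13 higher, 0 lower and 10 not called and a median of 0.06. REST itself, named here because it is known to repress STMN2, measured 61.5, 66.7 and 64.2 CPM in SMARCA3 KO replicates 1 to 3 and 64.4, 61.2 and 60.6 CPM in WT replicates 1 to 3, a log2 fold change of 0.05 with an SE of 0.05 (adjusted p = 0.519). Its ranges overlapped. The H3K9 methyltransferase gene EHMT2 and the scaffold gene SIN3A had log2 fold changes of 0.36 and 0.15, and SIN3A was not called without SMARCA3 KO replicate 2 (adjusted p = 0.0773). Of 8 RNA-binding proteins of neuronal mRNAs, 3 were higher, 0 lower and 5 not called, with a median of 0.06, and 1 was called without SMARCA3 KO replicate 1 and 1 without SMARCA3 KO replicate 2. TARDBP, named for its known action on STMN2 pre-mRNA, measured 214, 217 and 204 CPM in SMARCA3 KO replicates 1 to 3 and 214, 208 and 211 CPM in WT replicates 1 to 3 (log2 fold change 0.00, adjusted p = 0.964). HNRNPA1, a splicing regulator with many processed pseudogenes that may share its reads, rose by 0.16 on the log2 scale.

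The axon maintenance and degeneration pathway, in which NMNAT2 keeps up NAD and SARM1 destroys it and in which the kinase MAP3K12 (DLK) acts on the turnover of STMN2 protein, had 2 of 11 higher, 2 lower and 7 not called, with a median of -0.08. NMNAT2 measured 3.32, 3.04 and 2.85 CPM in SMARCA3 KO replicates 1 to 3 and 7.52, 5.93 and 6.63 CPM in WT replicates 1 to 3, a log2 fold change of -1.12 with an SE of 0.12 (adjusted p = 4.28e-05). SARM1 measured 4.86, 4.26 and 4.51 CPM in SMARCA3 KO libraries and 8.22, 9.88 and 9.07 CPM in WT libraries, a log2 fold change of -0.99 with an SE of 0.10 (adjusted p = 3.19e-05). Both of these opposing enzymes fell, and for neither did the groups overlap, as was so for 45.6% of all tested genes. Both were named for a small p in this same contrast, so their separation is a description. MYCBP2, an E3 ligase of axons, was higher by 0.15 and the JNK scaffold gene MAPK8IP2 by 0.34. The call of MYCBP2 was lost without SMARCA3 KO replicate 2 (adjusted p = 0.0564), and that of MAPK8IP2 without SMARCA3 KO replicate 1 (0.0577), SMARCA3 KO replicate 3 (0.0739) or WT replicate 2 (0.0550), while with its neighbour median of 0.51 removed its value was -0.17 (0.238).

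**Figure D5:**
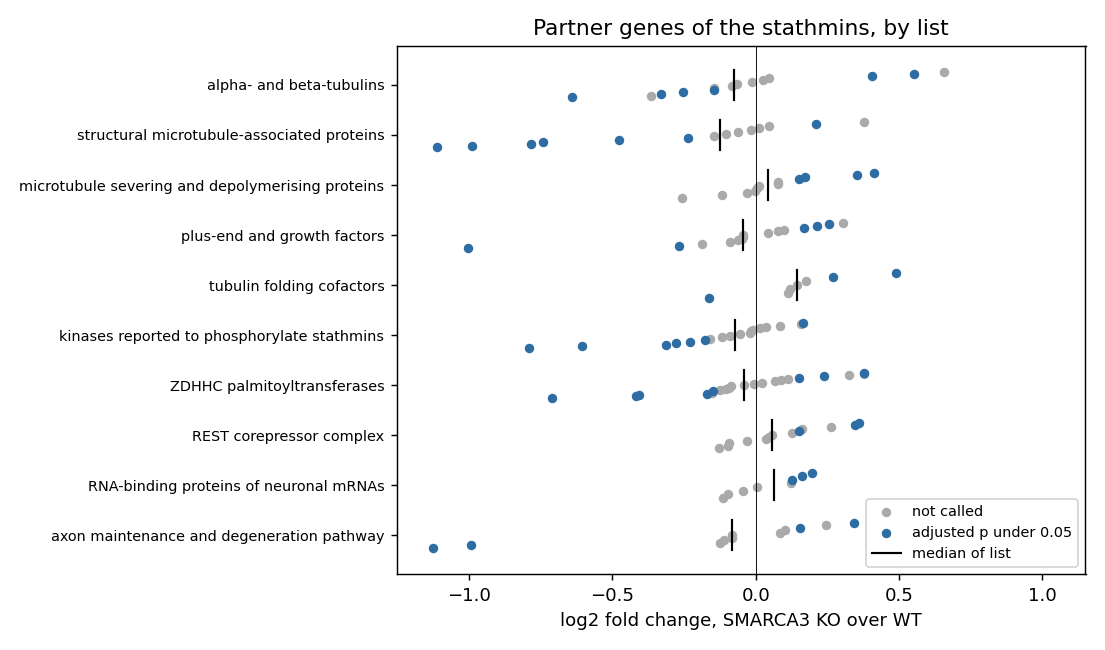
Log2 fold change of SMARCA3 KO over WT for each tested member of the 10 partner lists, 1 point per gene, with genes at an edgeR adjusted p under 0.05 in blue, others in grey and a black line at each list's median. List medians lie between -0.13 and 0.15, and NMNAT2 at -1.12, SLAIN1 at -1.004 and MAP7 at -0.99 are among the lowest points.

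Other neuronal marker genes moved in both directions. Of 21 neuronal markers, 17 were tested, with 2 higher, 5 lower and 10 not called and a median of -0.12. Over all tested genes 14% were called higher and 17.7% lower, so calls in both directions are not particular to these markers. The summed level of all 21 was 214 to 219 CPM in SMARCA3 KO libraries and 258 to 266 CPM in WT libraries. Most of this difference was that of NEFM alone, at 0.0501 ± 0.0633 CPM in SMARCA3 KO cells and 34.8 ± 2.85 CPM in WT cells (SD, n = 3 each). RBFOX3, the splicing factor NeuN, rose to 7.48 ± 0.374 CPM in SMARCA3 KO cells, against 3.69 ± 0.530 CPM in WT cells (SD, n = 3 each), and the granin SCG3 rose by 0.63 on the log2 scale. GAP43, which like STMN2 is palmitoylated and enriched in growth cones, fell to 0.939 ± 0.209 CPM in SMARCA3 KO cells, against 2.69 ± 0.138 CPM in WT cells (SD, n = 3 each), and SYT1 and NEFM had log2 fold changes of -1.32 and -9.40. The doublecortin gene DCX and the neuronal ELAV genes ELAVL3 and ELAVL4 had too few counts to test in either group. These 8 markers were named after their values were seen, and the part of the marker differences in the level of STMN2 was not tested.

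A pair of further rows carries a stathmin name outside the family. STMND1, which encodes a protein with a stathmin-like domain, had 8, 8 and 6 counts in SMARCA3 KO replicates 1 to 3 and 36, 20 and 19 counts in WT replicates 1 to 3. The groups did not overlap, as was so for 45.6% of all tested genes. STMND1 measured 0.211 ± 0.0262 CPM in SMARCA3 KO cells and 0.626 ± 0.209 CPM in WT cells (SD, n = 3 each). Its log2 fold change was -1.56 with an SE of 0.34 (edgeR adjusted p = 0.00496). The processed pseudogene STMN1P1 had 2, 6 and 4 counts in SMARCA3 KO libraries and 1, 2 and 2 counts in WT libraries, too few to test. Both were named after their values were seen.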

How the data were processed

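Raw counts per gene symbol were deposited by the authors for 3 SMARCA3 KO and 3 WT libraries, made from poly(A)-selected RNA with a stranded kit and paired 50-base reads, per the labels' protocols. Trim Galore, STAR 2.4, Picard, HTSeq 0.9.1, DESeq2 and hg38 are named in the submitters' processing notes, while which annotation and strand option HTSeq used is not given in the sources used here. All other values were computed from the counts. Genes were filtered with filterByExpr, scaled by TMM and tested with the quasi-likelihood F test of edgeR 4.0.16 in R 4.3.3, SMARCA3 KO over WT, with Benjamini-Hochberg adjustment over 18061 genes and a threshold of 0.05, and the code was tested on simulated data. CPM relate each count to the TMM-scaled total of tested genes. Totals of 33125811 to 41593655 counts set a floor of 3 counts at 0.0723 to 0.0909 CPM, for counting error only. Rows that name no gene numbered 0. GENCODE 29 positions matched 29587 symbols, and 77.9% of tested genes had a position. Genes without one had no neighbour median and could not be counted as neighbours or flanking genes. Alternatives used other scalings and filters, DESeq2 1.42.0, limma-voom (limma 3.58.1), robust dispersion, a replicate block, neighbour medians, a threshold of 0.01 and each library left out. Besides the members and HLTF, the text names up to 2 called genes per list and direction with the smallest p, the 5 nearest profiles and the flanking genes; REST and TARDBP were added for their known link to STMN2. A gene that this rule names is not reported here. The members and lists were chosen with earlier results of these data known.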

Additional observations from a re-analysis of the deposited data

How the results depend on the processing

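STMN1 ran from -0.06 to -0.00 on the log2 scale over 16 alternatives (adjusted p 0.371 to 0.987) and was never called, and STMN2 ran from 4.36 to 4.63 over 15. STMN3 was called lower with no filter on low counts (-0.21, adjusted p = 0.0197) and without WT replicate 1, and ran from -0.31 to -0.078 with each library left out. STMN4 ran from -2.39 to -1.43 with each library left out except SMARCA3 KO replicate 3, which holds its only SMARCA3 KO count; the other fits filter it out, and edgeR without a filter gave an adjusted p of 0.508. The 5737 called genes became 3477 at a threshold of 0.01 and 4251 to 6156 with each library left out, and the 50 called partners became 28 and 33 to 53. Removing neighbour medians turned the sign of HLTF (0.017), MAPK8IP2 (-0.17), ZC2HC1A (0.093), HEY1 (0.082), GMEB2 (-0.081), DDX18 (0.025), SPIN1 (0.0090), LAGE3 (0.10) and FAM3A (0.10). With each library left out the sign also turned within GMEB2 (-0.046 to 0.089), DDX18 (-0.040 to 0.016), POLB (-0.058 to 0.015), ZC2HC1A (-0.058 to 0.094), DPYSL2 (-0.017 to 0.060), HEY1 (-0.050 to 0.012) and PAK1IP1 (-0.046 to 0.0063). The cause was not tested. Calls among ZDHHC enzymes became 5 with DESeq2, with the replicate block and with neighbour medians removed, against 8, and 4 at a threshold of 0.01, where severing proteins had 2 against 4, cofactors 1 against 3, kinases 3 against 7, and the REST and RNA-binding lists 1 against 3 each. RNA-binding proteins also had 1 call with no filter and with the replicate block. Libraries with the same replicate number did not deviate together (correlations of -0.226, -0.0144 and -0.0547). With so few libraries per group, these correlations cannot exclude that the samples were paired. With the replicate block 4232 genes and 43 partners were called, with STMN1 at -0.04, STMN2 at 4.45 and STMN3 at -0.19 (adjusted p = 0.593 for STMN1 and 0.334 for STMN3).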
